A study of Rattus norvegicus with 18 samples.

Results

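The apoptosis regulators followed here are 7 genes taken by symbol: the caspases Casp4 and Casp8, the survival proteins Bcl2l1 and Mcl1, and the death-promoting Bax, Bid and Diablo. The array platform's annotation assigns at least 1 probe set of a single gene symbol to each of them except Bax, whose only probe set carries several symbols. The other 6 were above the detection filter (log2 4 in at least 3 arrays) and were tested among 9149 genes. Where a gene had more than 1 such probe set, the one with the highest mean over all 18 arrays represents it, and the others serve as a check. The members were taken by name, with earlier results of these data known.

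Apoptosis is a form of programmed cell death run by caspases, proteases that lie dormant until they are cleaved or brought together. Caspase 8 starts it from death receptors at the cell surface and can cut Bid, whose fragment then moves to mitochondria. There, proteins of the BCL2 family decide whether the outer membrane is opened: Bax and Bak1 form the pores, while Bcl-xL (the long product of Bcl2l1) and Mcl1 hold them back. Diablo, also called Smac, leaves the opened mitochondria and relieves caspases of their inhibitors. Caspase 4, known in rodents also as caspase 11, belongs to the inflammatory caspases and triggers a lytic death through gasdermin D. These proteins are regulated largely by cleavage, binding and location, and arrays of RNA report none of that.

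The cells were NRK-52E, a rat kidney epithelial line of the Osborne-Mendel strain that the labels call proximal tubule cells. Confluent cultures received either 1.1 µM of chlorothalonil, a fungicide with a chlorinated ring, dissolved in DMSO (0.1% in the medium), or the same share of DMSO alone, and RNA was taken after 6, 24 and 72 h. The labels describe the dose as the one that inhibits by 10% at 72 h. This gives 6 groups of 3 arrays, which the labels call biological replicates.

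Expression is given on the log2 scale of the deposited values, on which a difference of 1 is a doubling. Probe sets differ in how brightly they bind, so levels are compared between groups and not between genes. Of 12 proximal tubule markers, 8 lay at or below log2 4 on all 18 arrays, among them the defining transporters Slc34a1, Slc5a2, Slc22a6 and Slc22a8 and the receptors Lrp2 and Cubn, whereas the brush-border peptidases Mme and Enpep were above it on all arrays. Of 7 markers listed for epithelium, 4 were above it on all arrays (Krt8, Cdh2, Ocln and Tjp1). The 3 others were at background on all arrays (Krt18, Epcam and Cldn1). Fibroblast markers had 3 of 6 members at background on all arrays (Pdgfra, Thy1 and Dcn) and 2 above it on all (Col1a1 and Col3a1, whose values reached 7.50 and 14.53). The mean log2 of that list was 5.24 to 5.49 in DMSO against 4.34 to 4.53 in chlorothalonil at 72 h, and 4.18 to 4.27 against 3.73 to 3.92 at 24 h. The proximal tubule list was higher in DMSO without overlap at each time (3.49 to 3.53 against 3.26 to 3.39 at 6 h), and the epithelial list was higher under chlorothalonil at 6 h (7.24 to 7.35 against 7.05 to 7.10) and 24 h (7.17 to 7.27, with the highest DMSO array at 7.06). The part of these markers in the changes was not tested. All 5 distal nephron markers were at background, as were 4 of 5 measured leukocyte and 3 of 4 endothelial markers, while 2 of 3 podocyte markers, Synpo and Wt1, were above it on all arrays. In bulk RNA, fewer cells of a type and less RNA per cell cannot be told apart. Over the 9149 tested genes, arrays of a group correlated at 0.992 to 0.998, and no pair of arrays held identical values. DMSO 6 h replicate 2 stood apart, with hybridization controls at 10.35 against 11.07 to 11.99 in the other arrays and the lowest array weight (0.341).

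A reading of direction depends on how the arrays are scaled. The deposited values sit close to a common distribution but not exactly on it, with array medians over all probe sets from 3.93 to 4.22. On the deposited scale the median change of all genes was -0.0097 at 6 h, 0.057 at 24 h and 0.074 at 72 h. Bacterial poly-A RNAs, which standard protocols add to each sample, were brighter in the treated arrays by 0.62, 1.07 and 0.67 on the log2 scale at 6, 24 and 72 h. Their mean in DMSO at 24 h ran from 8.97 (replicate 1) to 10.3. Setting the arrays to these controls lowered every treatment difference by those amounts and moved the median of all genes to -0.62, -1.02 and -0.60. At 24 h the median was -0.59 without DMSO replicate 1. Which scale is right cannot be told from the sources used here. Hence "higher" and "lower" below are relative to the bulk of transcripts on the same arrays, and a rise smaller than 0.62, 1.07 or 0.67 at the respective time turns into a fall when scaled to the controls.

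Sequence just before the annotated start was at hand for 4 of the 7 genes: Mcl1, Bcl2l1, Bid and Diablo. The windows of Diablo and Bid are shown because they are the pair of mitochondrial death genes whose RNA was higher under treatment at 6 and 24 h, and that of Mcl1 because its probe sets went opposite ways. They are the 250 bases before the start in RefSeq's GRCr8 assembly, written 5′ to 3′ on the gene's strand, at chr12:38716418-38716667 (plus strand), chr4:155808320-155808569 (minus strand) and chr2:185907918-185908167 (plus strand). Capitals mark matches to the motifs searched.
Diablo: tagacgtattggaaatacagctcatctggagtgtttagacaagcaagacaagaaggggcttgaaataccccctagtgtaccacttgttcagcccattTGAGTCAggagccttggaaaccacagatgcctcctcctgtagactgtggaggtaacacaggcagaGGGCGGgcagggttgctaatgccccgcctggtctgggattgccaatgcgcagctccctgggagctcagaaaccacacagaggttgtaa
Bid: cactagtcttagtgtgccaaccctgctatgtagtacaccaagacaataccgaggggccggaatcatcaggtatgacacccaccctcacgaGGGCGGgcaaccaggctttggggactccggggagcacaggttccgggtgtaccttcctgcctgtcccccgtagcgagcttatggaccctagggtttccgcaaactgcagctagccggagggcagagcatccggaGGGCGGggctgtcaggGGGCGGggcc
Mcl1: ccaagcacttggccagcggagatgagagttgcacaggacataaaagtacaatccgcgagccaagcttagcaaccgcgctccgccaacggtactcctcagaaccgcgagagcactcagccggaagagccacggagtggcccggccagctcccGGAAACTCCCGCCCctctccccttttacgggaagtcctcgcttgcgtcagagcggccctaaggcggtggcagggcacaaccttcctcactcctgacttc

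The motifs were searched on both strands: AP-1 (TGANTCA), CRE (TGACGTCA), the CHOP or ATF4 composite site (TGATGNAAT), NF-kB (GGGA and TTTCC with 1 base between), the GC box (GGGCGG), the interferon element (GAAA and GAAA with 2 bases between), the heat shock element (GAA, TTC and GAA with 2 bases between each) and the antioxidant element (TGACNNNGC). Of 33469 windows of the same length, 6.34% hold the AP-1 letters, 1.59% the CRE, 0.944% the composite site, 0.314% the NF-kB letters, 30.5% the GC box, 3.41% the interferon element, 0.663% the heat shock element and 10.1% the antioxidant element. The Diablo window holds 1 AP-1 match 153 bases before the start and 1 GC box at 88. The Bid window holds 3 GC boxes, at 160, 26 and 10 bases before the start, and none of the other motifs. In the Mcl1 window the NF-kB letters, 99 bases before the start, overlap a GC box at 91, both on the minus strand. Bcl2l1 has 4 annotated starts. The window at chr3:161764776-161765025 (minus strand) holds 1 composite-site match at 171 bases and 1 antioxidant match at 19, and the other 3 hold no match. These are matches of letters, not measured sites.

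At 6 h, 5 of the 6 members differed from DMSO at an adjusted p under 0.05. Casp4, Bid and Diablo were higher, and Casp8 and, by its brighter probe set, Mcl1 lower. Beside this count, 59.6% of all genes were called at that time (27.8% higher and 31.8% lower), and the members' median change was 0.047. At 24 h, 4 of 6 differed, all higher (Casp4, Casp8, Bid and Diablo), beside 70.1% of all genes (39.1% higher and 31.1% lower), with a median change of 0.69. At 72 h, 5 of 6 differed, with Casp4, Casp8, Bcl2l1 and Diablo higher and Mcl1, by its brighter probe set, lower. Beside this count, 64.3% of all genes were called (37.2% higher and 27.0% lower), and the members' median change was 0.51. By its dimmer probe set Mcl1 was higher by limma at 6 h (0.33, adjusted p = 0.00382) and 72 h (0.31, adjusted p = 0.00508). The arrays of treated and DMSO groups did not overlap in 66.7%, 73.0% and 70.5% of all genes at 6, 24 and 72 h. Over the 12693 probe sets with 1 gene symbol that passed, 54.7%, 66.0% and 60.1% were called. Since more than 1 gene in 2 was called at each time, the number of members called is near the background, and the sizes and time courses below carry the description. Scaled to the poly-A controls, limma called 3 members at 6 h (0 higher, 3 lower), 2 at 24 h (0 higher, 2 lower) and 2 at 72 h (1 higher, 1 lower), and 0 were higher at 6 or 24 h at an unadjusted p under 0.05 too. On that scale 41.7%, 71.3% and 41.3% of all genes were called. At 6 h the count fell to 3 without chlorothalonil replicate 1, without chlorothalonil replicate 2 or without DMSO replicate 2.

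**Figure D1:**
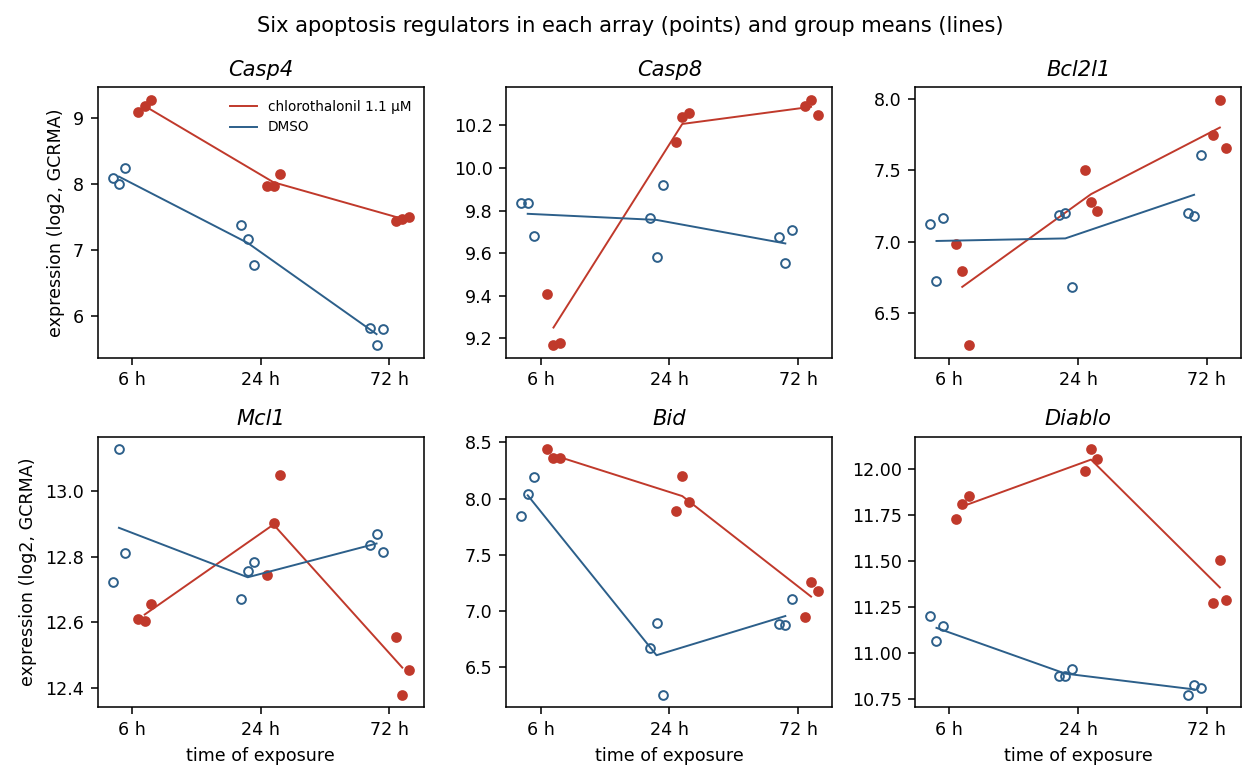
Expression (log2, deposited GCRMA values) of the 6 measured members in each array by time of exposure. Filled points are chlorothalonil arrays, open points DMSO arrays, and lines join the means of 3 arrays. Casp4 and Diablo were higher in every treated array than in the DMSO arrays of the same time, Casp8 started lower and ended higher, and the treated and DMSO arrays of Bid met at 72 h. The deposited scale is shown.

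Casp4 was higher under chlorothalonil at every time, by 2.10-fold, 1.89-fold and 3.37-fold. At 6 h the treated arrays read 9.09, 9.18 and 9.28 (probe set 1387818_at) and the DMSO arrays 8.10, 8.002 and 8.24. At 24 h they read 7.97, 7.97 and 8.14 against 7.38, 7.17 and 6.77. After 72 h the values were 7.44, 7.47 and 7.50 against 5.81, 5.55 and 5.80. The groups did not overlap at any time. The log2 differences were 1.07, 0.92 and 1.75 (SE 0.124 each), with limma adjusted p-values of 2.97e-06, 8.25e-06 and 1.44e-08. Casp4 ranked 370th, 1107th and 195th from the highest change among the 9149 genes. On the poly-A scale the difference was 0.46 at 6 h (adjusted p = 0.236) and -0.15 at 24 h, while the one at 72 h, 1.08, was still called. At 24 h it was 0.39 on that scale without DMSO replicate 1 (adjusted p = 0.151).

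Casp4 declined with time in both groups. In DMSO it fell by 1.01 from 6 to 24 h (adjusted p = 2.67e-06) and by 1.39 from 24 to 72 h (adjusted p = 2.22e-07), while the treated means went from 9.18 to 8.03 and 7.47. The treatment effect at 72 h exceeded that at 24 h by 0.83 (adjusted p = 0.000892), and the effects at 6 and 24 h did not pass the test of their difference (-0.15, adjusted p = 0.471). In order of level, chlorothalonil at 6 h (9.18 ± 0.0952, SD, n = 3) came first, then DMSO at 6 h (8.11 ± 0.119) and chlorothalonil at 24 h (8.03 ± 0.103), whose arrays overlap. Chlorothalonil at 72 h (7.47 ± 0.0327), DMSO at 24 h (7.10 ± 0.310) and DMSO at 72 h (5.72 ± 0.149) followed.

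Casp8, the initiator caspase of the death receptor pathway, changed sides: it was lower at 6 h and higher at 24 and 72 h. At 6 h the treated arrays read 9.41, 9.17 and 9.18 (probe set 1380297_at) against 9.83, 9.84 and 9.68 in DMSO. At 24 h they read 10.12, 10.24 and 10.26 against 9.77, 9.58 and 9.92. By 72 h they stood at 10.29, 10.32 and 10.25 against 9.68, 9.55 and 9.71. All treated arrays lay below all DMSO arrays at 6 h and above them later. The differences were -0.53 (SE 0.0878, adjusted p = 9.36e-05), 0.45 (adjusted p = 0.0003) and 0.64 (adjusted p = 1.37e-05).

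The turn in Casp8 came with a rise of the treated mean from 9.25 at 6 h to 10.21 at 24 h. Its effect at 24 h exceeded that at 6 h by 0.98 (adjusted p = 7.72e-06). By 1380297_at its DMSO level passed no test between times (-0.029 from 6 to 24 h, adjusted p = 0.783, and -0.11 from 24 to 72 h, adjusted p = 0.293). The second probe set of Casp8, 1369262_at, gave -0.34, 0.50 and 0.55 at the 3 times (adjusted p = 0.000705, 1.51e-05 and 8.74e-06). Both probe sets therefore had the same signs under treatment. In DMSO, 1369262_at changed by -0.10 from 6 to 24 h (adjusted p = 0.218) and by -0.25 from 24 to 72 h (adjusted p = 0.00556, without overlap). With poly-A scaling the later rises of the brighter probe set became -0.62 at 24 h (-0.21 without DMSO replicate 1) and -0.030 at 72 h. In order of level, the treated arrays of 72 h (10.29 ± 0.0357) and 24 h (10.21 ± 0.0732), which overlap, stood highest, the DMSO groups lay together at 9.78 ± 0.0889, 9.76 ± 0.167 and 9.65 ± 0.0834, and chlorothalonil at 6 h (9.25 ± 0.136) was lowest.

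Bcl2l1, which encodes the survival protein Bcl-xL, moved little beside its spread. At 6 h the treated arrays read 6.98, 6.79 and 6.27 (probe set 1370812_at) and the DMSO arrays 7.13, 6.72 and 7.16, which overlap. At 24 h they read 7.50, 7.28 and 7.22 against 7.18, 7.20 and 6.69. At 72 h they read 7.75, 7.99 and 7.65 against 7.20, 7.18 and 7.61. At both later times the lowest treated array stood just above the highest DMSO array. The differences were -0.32 (SE 0.192, adjusted p = 0.163), 0.31 (adjusted p = 0.162) and 0.47 (adjusted p = 0.0432). The call at 72 h was lost without chlorothalonil replicate 1 (0.50, adjusted p = 0.0669) or 2 (0.37, adjusted p = 0.15) of that time, without DMSO replicate 1 (0.41, adjusted p = 0.125) or 2 (0.40, adjusted p = 0.133) of that time, and without chlorothalonil 24 h replicate 2 (adjusted p = 0.0513).

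In the order of Bcl2l1 levels, chlorothalonil at 72 h (7.80 ± 0.175) was highest and chlorothalonil at 6 h (6.68 ± 0.367) lowest. Between them, chlorothalonil at 24 h (7.33 ± 0.151) and DMSO at 72 h (7.33 ± 0.241), 24 h (7.02 ± 0.292) and 6 h (7.005 ± 0.243) followed in that order, and each overlaps with the next. A dimmer probe set of Bcl2l1, 1370485_a_at, read between 3.54 and 5.62 and gave 0.0058, 0.10 and 0.46, none of them called. A further one, 1369180_at, did not pass the filter. After poly-A scaling Bcl2l1 stood at -0.94 at 6 h (adjusted p = 0.014), -0.76 at 24 h (-0.28 without DMSO replicate 1) and -0.20 at 72 h.

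Mcl1, a survival protein with a short life in the cell, gave opposite signs from its 2 probe sets at 6 and 72 h on the deposited scale. By the brighter one, 1372520_at, the treated arrays read 12.61, 12.60 and 12.66 at 6 h against 12.72, 13.13 and 12.81 in DMSO. At 24 h they read 12.74, 12.90 and 13.05 against 12.67, 12.76 and 12.78. At 72 h they read 12.55, 12.38 and 12.45 against 12.84, 12.87 and 12.81. The treated arrays lay below DMSO at 6 and 72 h and overlapped with it at 24 h. The differences were -0.26 (SE 0.094, adjusted p = 0.025), 0.16 (adjusted p = 0.14) and -0.38 (adjusted p = 0.00258). The call at 6 h was lost without chlorothalonil replicate 1 (-0.26, adjusted p = 0.0589) or 2 (-0.25, adjusted p = 0.0634) and without DMSO replicate 2 (-0.14, adjusted p = 0.144). At 24 h the difference was called without chlorothalonil replicate 1 (0.24, adjusted p = 0.0463).

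By the dimmer probe set, 1370141_at, Mcl1 was higher at every time. The treated arrays read 11.07, 11.27 and 11.29 at 6 h against 10.93, 10.81 and 10.90 in DMSO. At 24 h they read 11.24, 11.39 and 11.27 against 10.60, 10.66 and 10.58. At 72 h they read 10.14, 10.12 and 10.06 against 9.93, 9.86 and 9.60. No array overlapped between the groups of a time. In a fit over the 12693 probe sets with 1 gene symbol that passed, the differences were 0.33 (adjusted p = 0.00382), 0.69 (adjusted p = 4.25e-06) and 0.31 (adjusted p = 0.00508). In that fit the brighter probe set had -0.26 (adjusted p = 0.0301), 0.16 (adjusted p = 0.154) and -0.38 (adjusted p = 0.00332).

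**Figure D2:**
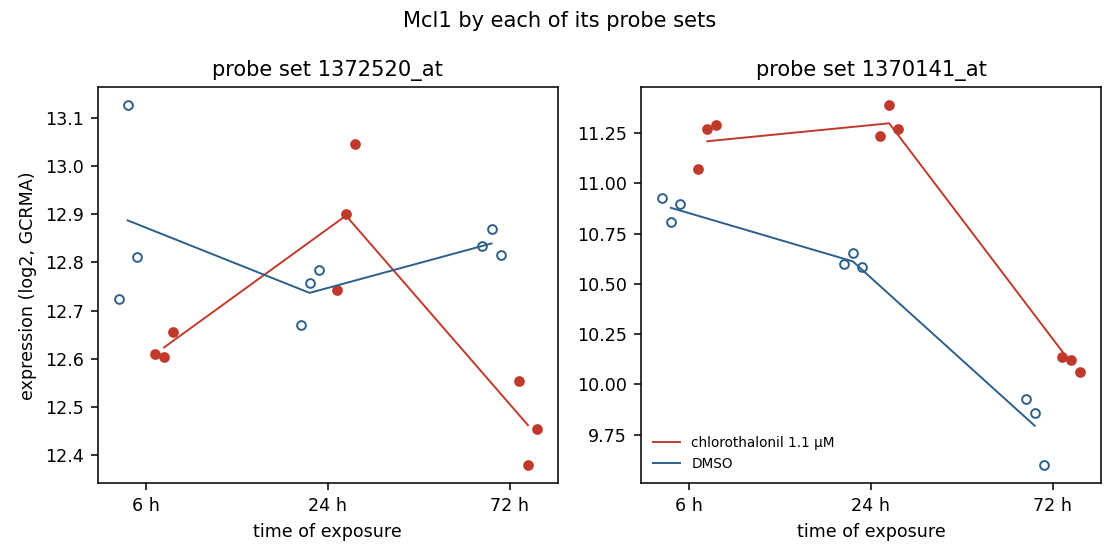
Expression of Mcl1 (log2, deposited values) by each of its probe sets, with filled points for chlorothalonil arrays, open points for DMSO arrays and lines through the means of 3 arrays. By 1372520_at the treated arrays lie below DMSO at 6 and 72 h, and by 1370141_at they lie above DMSO at every time. Each panel has its own axis.

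The gap between the probe sets of Mcl1, dimmer minus brighter within an array, does not depend on a shift common to the array. It was -1.41 ± 0.111 (SD, n = 3) under chlorothalonil and -2.01 ± 0.272 in DMSO at 6 h, -1.60 ± 0.153 against -2.12 ± 0.0672 at 24 h, and -2.36 ± 0.085 against -3.05 ± 0.157 at 72 h. The treated arrays had the smaller gap at each time, without overlap, and the gap widened in both groups between 24 and 72 h. The probe sets also parted in DMSO alone, where 1370141_at fell by 0.27 from 6 to 24 h (adjusted p = 0.0111) and by 0.82 from 24 to 72 h (adjusted p = 1.17e-06), while 1372520_at passed neither test by the fit over genes (adjusted p = 0.163 and 0.363). Whether they bind different Mcl1 transcripts was not tested, so no direction for the gene as a whole is given at 6 and 72 h. On the scale of the poly-A controls, both probe sets were below DMSO at every time. The brighter one read -0.88 (adjusted p = 0.0216), -0.91 (adjusted p = 0.00898, and -0.54 with an adjusted p of 0.0421 without DMSO 24 h replicate 1) and -1.05 (adjusted p = 0.00591), and the dimmer one -0.28, -0.39 and -0.36.

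By the brighter probe set the order of Mcl1 levels ran from chlorothalonil at 24 h (12.90 ± 0.152) through DMSO at 6 h (12.89 ± 0.212), 72 h (12.84 ± 0.0275) and 24 h (12.74 ± 0.0593) to chlorothalonil at 6 h (12.62 ± 0.0285) and 72 h (12.46 ± 0.0878). Neighbours in the first 3 places overlap.

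Bid, the link from caspase 8 to the mitochondrion, was most different at 24 h. There the treated arrays read 7.89, 8.20 and 7.97 (probe set 1377759_at) against 6.67, 6.89 and 6.25 in DMSO, about 1 log2 unit between the nearest arrays. At 6 h they read 8.44, 8.36 and 8.36 against 7.85, 8.04 and 8.20, close but without overlap. At 72 h they read 6.94, 7.26 and 7.18 against 6.88, 6.88 and 7.10, which overlap. The difference at 24 h was 1.42 (2.67-fold, SE 0.143, adjusted p = 3.87e-07), the 470th highest of all genes. It was 0.36 at 6 h (adjusted p = 0.0426) and 0.17 at 72 h (adjusted p = 0.307).

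The call of Bid at 6 h was lost without chlorothalonil 6 h replicate 1 (0.33, adjusted p = 0.105), 2 (0.37, adjusted p = 0.0735) or 3 (0.37, adjusted p = 0.0716), and without DMSO 6 h replicate 1 (0.27, adjusted p = 0.164) or 2 (0.36, adjusted p = 0.0753). It was also lost, with adjusted p-values of 0.0501 to 0.0508, without DMSO 24 h replicate 1, chlorothalonil 72 h replicate 3, or DMSO 72 h replicate 1 or 2. Bid's second probe set, 1369683_at, lay near background, between 1.98 and 4.87. It gave differences of 0.34 (adjusted p = 0.425), 1.26 (adjusted p = 0.00421) and 0.090 (adjusted p = 0.843). Scaled to the poly-A controls, Bid stood at -0.26 at 6 h, 0.34 at 24 h (adjusted p = 0.332) and -0.50 at 72 h, and at 24 h it was called without DMSO replicate 1 (0.78, adjusted p = 0.00816).

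The Bid difference at 24 h came with a fall in DMSO. There Bid dropped by 1.43 from 6 to 24 h (adjusted p = 2.95e-07), and the treated arrays of 24 h (8.02 ± 0.163) stood where the DMSO arrays of 6 h stood (8.03 ± 0.175). The effect at 24 h exceeded that at 6 h by 1.06 (adjusted p = 0.000347), and the effect at 72 h was below that at 24 h by 1.25 (a difference of -1.25, adjusted p = 0.000101). From 24 to 72 h the DMSO arrays gave a rise of 0.35 (adjusted p = 0.0466) although they overlap. Chlorothalonil at 6 h (8.39 ± 0.0461) was the highest of the 6 groups, and below the overlapping pair at 8.03 and 8.02 came chlorothalonil at 72 h (7.13 ± 0.166), DMSO at 72 h (6.95 ± 0.129) and DMSO at 24 h (6.60 ± 0.327). Neighbours among those last 3 overlap.

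Diablo, the antagonist of the inhibitors of apoptosis, was higher at every time and had the smallest error of the members. At 6 h the treated arrays read 11.73, 11.81 and 11.85 (probe set 1372017_at) against 11.20, 11.07 and 11.14. At 24 h they read 11.99, 12.11 and 12.06 against 10.88, 10.88 and 10.91. The 72 h arrays read 11.27, 11.51 and 11.29 against 10.77, 10.83 and 10.81. The groups did not overlap at any time. The differences were 0.66 (1.58-fold, SE 0.0657, adjusted p = 6.39e-07), 1.17 (2.24-fold, adjusted p = 7.05e-10) and 0.56 (1.47-fold, adjusted p = 3.13e-06). They ranked 909th, 725th and 1841st from the highest of all genes. With the arrays set to the poly-A controls, the differences were 0.047 (adjusted p = 0.911), 0.091 (adjusted p = 0.803, and 0.49 with an adjusted p of 0.0642 without DMSO replicate 1) and -0.12.

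The treated mean of Diablo was 11.80 ± 0.0639 at 6 h and 12.05 ± 0.0595 at 24 h, a difference that was not tested. In DMSO it fell by 0.25 (adjusted p = 0.00309), a call lost under median centring (-0.14, adjusted p = 0.0644) and poly-A scaling (-0.055, adjusted p = 0.919). The effect at 24 h exceeded that at 6 h by 0.50 (adjusted p = 0.00025), and the effect at 72 h was smaller than at 24 h by 0.61 (-0.61, adjusted p = 5.37e-05). Chlorothalonil at 24 h was thus the highest group, followed by chlorothalonil at 6 h and 72 h (11.36 ± 0.131), then DMSO at 6 h (11.14 ± 0.0672), 24 h (10.89 ± 0.0196) and 72 h (10.80 ± 0.0283). No neighbours in that order overlap.

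**Figure D3:**
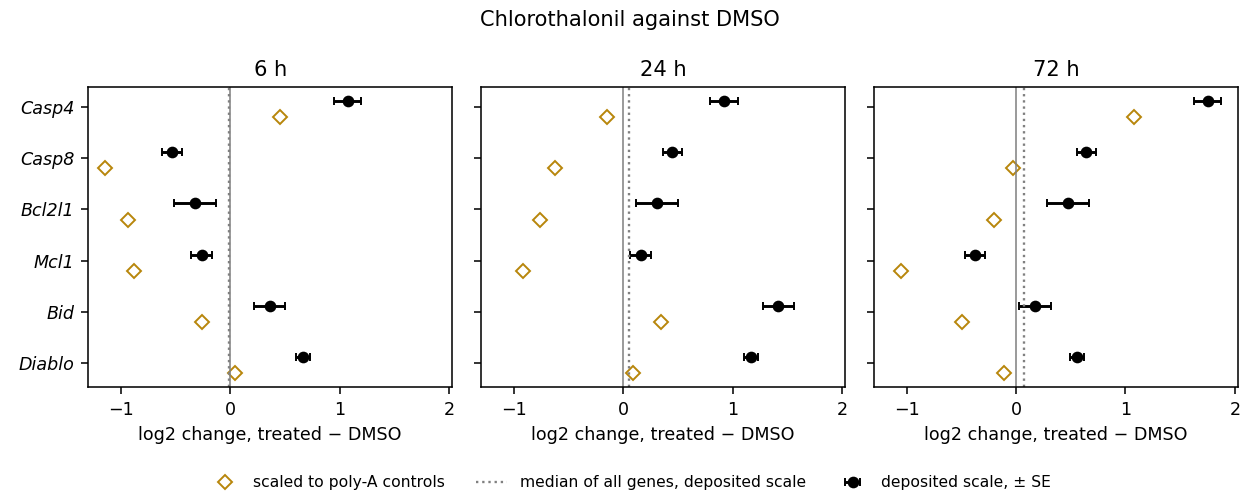
Difference between chlorothalonil and DMSO (log2) for each member at 6, 24 and 72 h. Filled points with bars are the deposited scale ± SE of the fit, open diamonds the same differences after scaling to the poly-A controls, and the dotted line the median of all genes on the deposited scale. On the deposited scale Casp4 and Diablo lie right of zero at each time, while after scaling to the controls Casp4 lies left of it at 24 h and Diablo at 72 h.

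Ratios between members within the same array are free of a shift common to all probe sets of that array, though not of how normalization shaped the distribution. Diablo against Mcl1 (brighter probe set) was raised under treatment by 0.93, 1.01 and 0.93 on the log2 scale at 6, 24 and 72 h, and no arrays overlapped. Against the dimmer Mcl1 probe set the same ratio was raised by 0.33, 0.48 and 0.24, with overlap at 72 h. Diablo against Bcl2l1 was raised by 0.98 and 0.86 at 6 and 24 h and by 0.085 at 72 h, when the arrays overlapped. Bid against Bcl2l1 was raised by 0.68 and 1.11 at 6 and 24 h and gave -0.30 at 72 h, the last with overlap. Bid against the brighter Mcl1 probe set was raised by 0.62, 1.26 and 0.55 without overlap, but against the dimmer one by 0.027, 0.73 and -0.14, with overlap at 6 and 72 h. At 24 h, then, Diablo and Bid were each raised against Bcl2l1 and against either Mcl1 probe set, with no overlap of arrays. Between the caspases, Casp4 against Casp8 was raised by 1.61, 0.47 and 1.11, without overlap at any time. These pairs were chosen by hand, and the share of other gene pairs without overlap was not counted. Lack of overlap therefore only describes these pairs. Among single genes, 73.0% did not overlap at 24 h.

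Differences between times were called for 4 of 6 members from 6 to 24 h, all positive, beside 63.0% of all genes (39.6% positive and 23.4% negative). From 24 to 72 h they were called for 4 of 6 (1 positive, 3 negative), beside 57.6% (27.9% positive and 29.8% negative). Over the probe sets with 1 gene symbol that passed, 57.6% and 53.1% were called for these differences. In DMSO alone 3 of 6 members fell from 6 to 24 h (Casp4, Bid and Diablo), beside 72.9% of all genes called (32.9% higher and 40.0% lower), and without overlap in 74.6%. Between 24 and 72 h, 2 were called in DMSO (Casp4 lower, Bid higher), beside 60.7% (36.3% higher and 24.3% lower), and without overlap in 66.5%. Over the probe sets with 1 gene symbol that passed, the DMSO comparisons called 68.6% and 61.7%. That last count was 1 without any one of 11 of the 18 arrays, through the loss of Bid, whose difference then ran from 0.17 to 0.39 with adjusted p-values of 0.0539 to 0.266: chlorothalonil 6 h replicates 1, 2 and 3, DMSO 6 h replicate 2, chlorothalonil 24 h replicate 3, DMSO 24 h replicates 1 and 3, chlorothalonil 72 h replicate 3 and DMSO 72 h replicates 1, 2 and 3.

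Of 57 other genes of the pathway, 29 were tested, 17 did not pass the filter (among them Bcl2, Fas, Faslg, Tnf, Casp1, Casp6, Birc3 and Il1b) and 11 were not analysed here. At 6 h, 19 of the 29 differed (11 higher, 8 lower, median change 0.026), at 24 h 16 (10 higher, 6 lower, median 0.10) and at 72 h 18 (10 higher, 8 lower, median 0.040). Of all genes, 59.6%, 70.1% and 64.3% were called at these times, with median changes of -0.0097, 0.057 and 0.074. Scaled to the poly-A controls, 10 differed at 6 h (1 higher, 9 lower) and 24 at 24 h (1 higher, 23 lower). At 72 h, 12 differed by limma (0 higher, 12 lower), with 1 higher at an unadjusted p under 0.05. The gene higher at 6 and at 24 h was Cflar, which was near or at background in DMSO. Of all genes, 41.7%, 71.3% and 41.3% were called on that scale.

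Among 3 other caspases tested, Casp12, a rodent caspase of the endoplasmic reticulum, was higher at every time by 0.76, 0.86 and 1.18 (adjusted p = 4.44e-05, 7.81e-06 and 4.14e-07), and Casp2 was lower by its brighter probe set (-1.04, -0.43 and -0.86). Its dimmer probe set gave -2.30 at 6 h (adjusted p = 8.43e-05), -0.27 at 24 h (adjusted p = 0.531) and 0.046 at 72 h (adjusted p = 0.929). Set to the poly-A controls, Casp12 lost its calls, with 0.14 at 6 h (adjusted p = 0.72), -0.21 at 24 h (adjusted p = 0.552) and 0.51 at 72 h (adjusted p = 0.192). Casp9, which is activated on the apoptosome, gave -0.018, 0.46 and -0.34, none called. In the RefSeq gene table Casp12 is the next protein-coding gene after Casp4, with Casp1 on the other side, and its log2 values correlated with those of Casp4 at r = 0.973 over the 18 arrays. That is a description over arrays that share groups and scaling.

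In the BCL2 family, the effector Bok was higher at 6 h (1.0) and 72 h (0.54), and Bak1, the partner of Bax in pore formation, was higher at 24 h (0.40, adjusted p = 7.93e-05) and passed no test at 6 and 72 h (0.026 and 0.15). Of 5 tested genes that encode BH3-only and related proteins, 4 were higher at 6 h, beside 27.8% of all genes. Bbc3, the p53-inducible gene for PUMA, was higher at every time by 0.43, 0.97 and 1.09. Bcl2l11, which encodes BIM, was higher at 6 h (0.59) and then lower at 24 h (-1.37, adjusted p = 4.51e-09) and 72 h (-0.39). Its dimmer probe set, near background, gave 0.53, 0.21 and 0.40, none called. The mitophagy receptor genes Bnip3 and Bnip3l were higher at 6 h (0.55 and 0.29) and parted at 72 h (0.42 and -0.58). The survival gene Bcl2l2 gave -0.31, 0.17 and -0.11, the last not called. On the poly-A scale the rises at 6 h turned negative except that of Bok (0.38, adjusted p = 0.317), and those at 24 h turned. At 72 h Bbc3 was at 0.42 (adjusted p = 0.286) on that scale, and Bok and Bnip3 turned.

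Downstream of mitochondria, Apaf1, the scaffold of the apoptosome, was lower at 6 h (-0.72) and 72 h (-0.91), and the value at 24 h (-0.21) was not called. Htra2, a protease released with Diablo, was higher at 6 h (0.55) and lower later (-0.30 and -0.29), and Aifm1 was higher at 24 h (0.42). Of the inhibitors that Diablo binds, Xiap was lower at 24 h (-1.05, adjusted p = 0.00518), and its dimmer probe set did not pass the test (-0.20, adjusted p = 0.666). Birc2 was lower at 6 h (-0.66) and higher at 72 h (0.23). Dffa, the inhibitor of the apoptotic nuclease, fell below DMSO at 6 h by a difference of -1.49 (adjusted p = 1.9e-08), was 0.36 above it at 24 h (adjusted p = 0.00659, with overlap of arrays) and differed by -0.33 at 72 h (adjusted p = 0.0119). The rises of Htra2, Aifm1, Birc2 and Dffa turn negative on the poly-A scale.

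Around caspase 8, Cflar, which encodes the decoy FLIP that blocks it, was higher at 6 h by 1.55 (adjusted p = 0.000103). Its DMSO arrays of 6 h read 4.31, 3.28 and 4.46, near the background limit of log2 4. At 24 h Cflar was at background in DMSO and at least 2.69-fold higher under treatment. At 72 h it was at background in both groups, although the fit counts it among the genes that were higher. Ripk3, a kinase of necroptosis, was higher at 6 h (0.80) and 72 h (1.40). Ripk1 was lower at 6 and 72 h (-0.63 and -0.76) and higher at 24 h (0.29), and the adaptor Tradd was lower at 24 and 72 h (-0.31 and -0.56). Gsdmd, the pore protein cut by caspase 4, was higher at 6 h (0.63), 0.19 below DMSO at 24 h (-0.19, adjusted p = 0.0478) and not called at 72 h (-0.082). Scaled to the poly-A controls, the difference at 6 h was 0.94 for Cflar (adjusted p = 0.014), 0.18 for Ripk3 (adjusted p = 0.642) and 0.013 for Gsdmd (adjusted p = 0.975). On that scale Ripk3 at 72 h (0.73, adjusted p = 0.0606) also lost its call, and Ripk1 at 24 h turned negative.

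**Figure D4:**
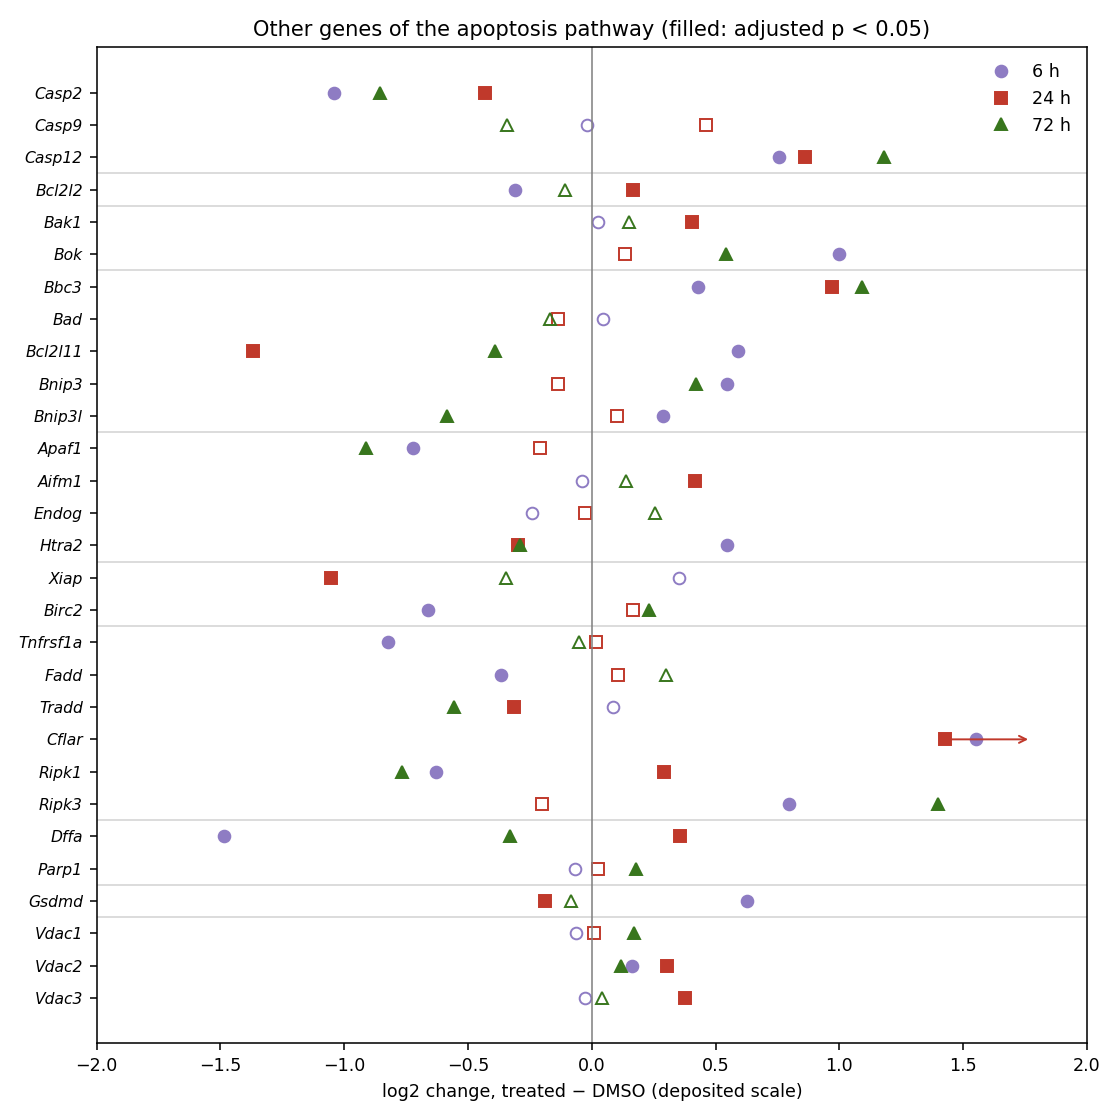
Difference between chlorothalonil and DMSO (log2, deposited scale) for the 29 other apoptosis genes tested, grouped by role between the grey lines. Filled symbols passed the test at that time, the arrow on Cflar at 24 h marks a lower bound, and Cflar at 72 h is left out because both groups were at background. Casp12 and Bbc3 lie right of zero and Casp2 left of it at all 3 times, and Bcl2l11 has its lowest value at 24 h.

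Some transcription factors and p53 targets were read beside the members. Atf3, a stress-induced AP-1 and ATF family factor, was 75.1-fold higher at 6 h and 41.5-fold at 24 h, and at least 45.5-fold higher at 72 h, when DMSO was at background. Ddit3, which encodes CHOP, was higher by 1.99, 1.98 and 1.50 on the log2 scale, and Mdm2, a p53 target, by 0.91, 1.61 and 1.48, and both stayed above DMSO when scaled to the poly-A controls. Cdkn1a, another p53 target, was higher by 0.52, 0.94 and 1.27 and Atf4 by 0.58, 0.79 and 0.93, of which those at 6 and 24 h turned on that scale. Irf1 was lower by every test (-1.93, -0.49 and -0.83). Their part in the members' changes was not tested.

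Over the 18 arrays, the members did not share 1 pattern. Pearson's r was 0.806 between Casp4 and Bid, 0.737 between Bid and Diablo, 0.731 between Casp4 and Diablo and 0.702 between Casp8 and Bcl2l1. It was -0.208 between Casp4 and Casp8 and -0.387 between Bcl2l1 and Mcl1. The genes with the most similar values were Ostc and Ivns1abp for Casp4 (both 0.978), Wdr24 and Cln8 for Casp8 (0.925 and 0.924), and Mybbp1a and Wdr74 for Bid (0.984 and 0.981). Diablo was nearest to Fdx2 and Aptx (0.970 and 0.968), Bcl2l1 to Sepsecs and Vav3 (0.913 and 0.900) and Mcl1 to Lypla1 and Trmt10b (0.869 and 0.863). Mybbp1a showed what such likeness means for Bid: its mean was 11.05 in DMSO at 6 h, 9.67 in DMSO at 24 h and 10.94 under chlorothalonil at 24 h. Aptx rose with Diablo to 9.49 under chlorothalonil at 24 h against 6.62 in DMSO. The arrays share groups and scaling, so these values describe and do not test.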

How the data were processed

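RNA from the 18 cultures was measured on Affymetrix rat arrays from 6 µg of total RNA, per the labels' protocols. The authors deposited log2 values of 31099 probe sets in 1 table. GCRMA made them, per the submitters' processing notes, and its version is not stated here. GCRMA models background from probe sequence and brings arrays toward a common distribution, which takes out a change common to most transcripts and compresses values near background. They span 0.915 to 16.1. The number of arrays, 3 a group, limits the precision.

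Of the probe sets, 20832 have 1 gene symbol, 436 several and 9831 none. Symbols of 20764 were updated through the Entrez identifier with the RefSeq table of GRCr8. A probe set passed when above log2 4 in at least 3 arrays, which 12693 with 1 symbol did, and the brightest per gene gave 9149 genes. limma 3.58.1 in R 4.3.3 fitted 6 group means over all 18 arrays (12 residual and 2.76 prior degrees of freedom). Tests are two-sided, with Benjamini-Hochberg adjustment over all genes and a threshold of 0.05. The design text names no test. The script was checked on simulated data.

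The members, the lists and the settings were chosen with earlier results of these data known. Text names all members, up to 4 genes of each list with the smallest p over the 3 treatment comparisons, the 2 genes most correlated with each member, and a fixed set of regulators. A gene is at background in a group when its 3 arrays are at or below log2 4, and its fold is then a bound against log2 4. Alternatives were no filter and a stricter one (log2 6), the highest-variance probe set, quantile, median and poly-A scaling (24 control probe sets), a variance trend, array weights, only the arrays of 1 time, replicate blocks and leaving out each array.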

Additional observations from a re-analysis of the deposited data

Results flagged for a closer look

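The treatment effect differed between times in these members, by the test of the difference itself (limma, adjusted over all genes). From 6 to 24 h the effect on Bid grew by 1.06 (adjusted p = 0.000347) and that on Diablo by 0.50 (adjusted p = 0.00025). In that interval the effect on Casp8 turned from -0.53 to 0.45, a change of 0.98 (adjusted p = 7.72e-06). The effect on Mcl1 went from -0.26 to 0.16, the latter not called, a change of 0.42 (adjusted p = 0.0117). From 24 to 72 h the effect on Casp4 grew by 0.83 (adjusted p = 0.000892). Over the same interval that on Mcl1 changed by -0.54 (adjusted p = 0.00289), that on Bid by -1.25 (adjusted p = 0.000101) and that on Diablo by -0.61 (adjusted p = 5.37e-05). For Mcl1 the values are those of the brighter probe set, and the dimmer one gave 0.36 (adjusted p = 0.019) and -0.38 (adjusted p = 0.0155), with the same signs. Bid's second probe set, near background, gave 0.93 (adjusted p = 0.11) and -1.17 (adjusted p = 0.0516), so neither change was called by it. That of Casp8 gave 0.85 from 6 to 24 h (adjusted p = 5.11e-06). After scaling to the poly-A controls, the 4 calls from 6 to 24 h were lost (Casp8 0.52, adjusted p = 0.515, Bid 0.60, adjusted p = 0.44, Diablo 0.045, adjusted p = 0.968, and Mcl1 -0.035, adjusted p = 0.975). From 24 to 72 h Casp4 was still called (1.23, adjusted p = 0.0481), and Mcl1 (adjusted p = 0.895), Bid (adjusted p = 0.225) and Diablo (adjusted p = 0.819) were not. The Mcl1 change from 6 to 24 h was also lost under median centring (0.25, adjusted p = 0.152).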

How the results depend on the processing

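Scaling to the poly-A controls changed the most. It left 3 members called at 6 h, 2 at 24 h, 2 at 72 h, 0 for the change of effect from 6 to 24 h (by limma, and 0 at an unadjusted p under 0.05), 1 from 24 to 72 h and 1 in DMSO from 24 to 72 h, and 10 of the wider genes at 6 h. It turned Bid at 6 h (-0.26), Casp4 (-0.15), Casp8 (-0.62), Bcl2l1 (-0.76) and Mcl1 (-0.91) at 24 h, and Casp8 (-0.030), Bcl2l1 (-0.20), Bid (-0.50) and Diablo (-0.12) at 72 h. It also turned the Mcl1 effect change from 6 to 24 h (-0.035) and, in DMSO, Casp8 (0.17) and Mcl1 (0.044) from 6 to 24 h and Mcl1 from 24 to 72 h (-0.12). An alternative chosen after seeing the data, that scaling without DMSO 24 h replicate 1, left 2 members called at 24 h, with Casp8 at -0.21, Bcl2l1 at -0.28 and Mcl1 at -0.54. Of all genes called, 6.07%, 3.93% and 8.26% were higher on that scale at 6, 24 and 72 h, against 46.7%, 55.7% and 57.9% on the deposited one.

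With the probe set of highest variance, Bcl2l1 at 6 h (0.0058) and Mcl1 at 6 h (0.33) and 72 h (0.31) turned. In DMSO from 24 to 72 h, Bcl2l1 (-1.0), Mcl1 (-0.82) and Bid (-0.42) turned too. Among the calls lost with that choice were both changes of effect of Bid (0.93, adjusted p = 0.11, and -1.17, adjusted p = 0.0516). Changes in DMSO from 6 to 24 h that were near 0 turned under quantile scaling (Casp8 0.017, Bcl2l1 -0.016), median centring (Casp8 0.078), array weights (Bcl2l1 -0.0021) and leaving out single arrays (Bcl2l1 -0.12 to 0.19, with -0.063 and -0.070 among them, and Casp8 -0.11 to 0.058). The count in DMSO from 24 to 72 h was 1 with no filter, median centring, a variance trend or array weights. Median centring also lost Mcl1 at 6 h (adjusted p = 0.159), Bcl2l1 at 72 h (0.0705) and Diablo in DMSO from 6 to 24 h (0.0644), no filter lost Bid at 6 h (0.0669) and Bcl2l1 at 72 h (0.072), and the 6 h arrays alone lost Mcl1 (0.0839). Array weights gained Bcl2l1 at 6 h (0.0213) and Bid at 72 h (0.0349). The cause was not tested. Leaving out single arrays gave 3 to 5 members called at 6 h, 4 to 5 at 24 h, 4 to 5 at 72 h, 4 to 5 and 4 to 4 for the changes of effect, 3 to 4 and 1 to 2 in DMSO, and 18 to 19, 14 to 18 and 16 to 18 wider genes. Of 1188 results under alternatives, 1084 kept direction and side of the threshold. Leaving out 1 array gave 756 of the 1188, often an array outside the comparison, which leaves the difference itself unchanged. Scaled to the poly-A controls, 16 of 42 results kept both, 13 turned, 12 lost their call and 1 gained a call.

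With the replicate number as a block, 5, 4 and 5 members were called at 6, 24 and 72 h, and no member's call changed. With a block within time, Bcl2l1 at 72 h lost its call (adjusted p = 0.0594). Same-numbered treated and DMSO arrays had deviations correlated at -0.0438 to 0.305, above 0.1 in 3 of 9 pairs, and 4 of 9 treated arrays correlated best with their own number, so the numbers were not taken to pair the arrays.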
